A study of Mastomys natalensis with 4 samples.

Results

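The genes described here encode cytosolic ribosomal proteins and the factors that start and elongate protein synthesis. They were measured in stomach lining of Mastomys natalensis, a rodent that readily forms tumours of the histamine-producing enterochromaffin-like (ECL) cells. Members were picked by gene symbol, under a rule set with earlier results of these data known. The rule took every probe set of the mouse U74 array whose annotation gave a single gene symbol starting with Rpl, Rps, Eif, Eef1 or Eef2. Where needed a digit had to follow, or the p of Rplp or the a of Rpsa, and the S6 kinases were left out. This gave 115 of the 12488 probe sets, for 84 genes, of which 35 encode ribosomal proteins and 49 translation factors and their regulators. All samples came from animals given loxtidine (spelled loxitidine in the labels), an antagonist of the histamine H2 receptor. The later group held 2 samples after 16 weeks, labelled with neoplasia of ECL cells, and the earlier group 2 samples after 8 weeks, labelled with hyperplasia of ECL cells. Treatment time and lesion stage therefore cannot be told apart, untreated mucosa was not analysed here, and the labels used here give neither age nor sex nor whether a sample was 1 animal or a pool. Each value is the deposited intensity of a probe set, on a linear scale.

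Ribosomal proteins build the large and small subunits around the ribosomal RNAs, and their transcripts are among the most abundant of any dividing or secreting cell. Initiation factors bring the initiator tRNA and the capped messenger RNA to the small subunit, and elongation factors deliver each aminoacyl-tRNA and move the ribosome along. Output is set largely by signalling, through kinases that phosphorylate the initiation factor eIF2 and through 4E-binding proteins that hold the cap-binding protein eIF4E. Oxyntic mucosa is a tissue of heavy protein secretion and constant cell renewal, so it depends on this machinery in mucous, chief, parietal and endocrine cells alike.

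The arrays were similar but not equal in brightness. Of the probe sets other than controls 62.4% and 62.3% lay above the intensity floor at 16 weeks, and 55.3% and 57.9% at 8 weeks (the floor, 12.15, is given below). Median intensities were 19.2 and 18.9 at 16 weeks and 15.4 and 17.3 at 8 weeks, whereas all 9 bacterial hybridisation control probe sets were lower at 16 weeks, with a median log2 difference of -0.57 (every log2 difference here is 16 weeks minus 8 weeks). The ratio of the 3′ to the 5′ probe set of β-actin, a sign of RNA integrity, lay at 1.46 and 1.63 in the 16-week samples, beside 1.26 and 1.16 in the 8-week samples. The same ratio for Gapdh overlapped, at 0.891 and 0.647 at 16 weeks and 0.714 and 0.589 at 8 weeks. The parietal cell pump subunit Atp4a (4850.1 and 4034 at 16 weeks, 4442 and 5304 at 8 weeks) and the surface cell peptide Tff1 (4220 and 4094 at 16 weeks, 4875 and 4910.2 at 8 weeks) marked the tissue as gastric mucosa. Of the 4 tested probe sets of ECL and endocrine markers 3 were higher at 16 weeks: the gastrin receptor Cckbr (0.49) and both of chromogranin A (0.51, with overlap, and 1.08). Chromogranin B overlapped at -0.46. The histamine-forming enzyme Hdc, which defines ECL cells, lay between 4.9 and 7.8 on the 4 arrays, below the intensity floor of 12.15 used here. Markers of some other cell types moved with the groups. Of 7 tested smooth muscle markers 6 were lower at 16 weeks (summed intensity 1688 to 1752 at 16 weeks and 2873 to 3349 at 8 weeks). Of 4 surface and neck mucous markers 4 were lower (4609 to 4827 at 16 weeks and 5551 to 5713 at 8 weeks, median log2 difference -0.43), with overlap for Muc1 (-0.08). Parietal cell probe sets were split, with 3 of 6 lower and a median of -0.017. Without overlap, Atp4b was lower (-0.84) and both probe sets of Kcnq1 higher (0.75 and 0.35), while Atp4a, Cblif and Car2 overlapped. All 7 tested lymphoid probe sets were higher (summed intensity of the list 292 to 316 at 16 weeks and 172 to 214 at 8 weeks). Over all tested probe sets 43.7% were lower. For Cd3d and a probe set of Ms4a1 both 8-week values were under the floor, so the filter fixed their direction. The groups of Cd79b overlapped. Summed pancreatic acinar markers ranged from 2247 to 5355 at 16 weeks and from 1050 to 3059 at 8 weeks, intestinal-type markers from 124 to 131 at 16 weeks and from 201 to 1126 at 8 weeks, and no marker was listed at 0. Their part in the results below was not tested, and in whole mucosa fewer cells of a type and less RNA per cell cannot be told apart.

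On the deposited scale the bright ribosomal protein signals were lower at 16 weeks, and no member passed the test on its own. At a mean intensity of 400 or more all 13 ribosomal protein probe sets were lower (84.6% without overlap, median log2 difference -0.465). Among all 252 probe sets that bright, members included, 80.2% were lower (62.3% without overlap, median -0.39). At 100 and over the medians were -0.45 and -0.16. With the arrays aligned on the hybridisation controls only 5 of the 17 bright members were lower, beside 29.4% of all 252 bright probe sets. Over all 115 member probe sets the summed intensity came to 23320 and 19250 in the 16-week samples, against 27110 and 26640 in the 8-week samples, which is 3.33% and 2.93% of all non-control signal at 16 weeks and 3.78% and 3.56% at 8 weeks. The 2 groups did not overlap on either measure, and the sum is dominated by the brightest probe sets. Of the 115, 88 probe sets for 71 genes lay above the floor on at least 2 arrays and were tested with limma, and 0 of them passed a Benjamini-Hochberg adjusted p of 0.05, as did 0% of the 7883 probe sets tested over the whole array. At an unadjusted p under 0.05 there were 21 members (23.9%), 10 lower and 11 higher at 16 weeks, where 14% of all tested probe sets reached that level (5.87% lower, 8.08% higher). Among the higher ones, Rpl35a, Rps14 and a probe set each of Eif3e, Eif4e and Rpl7 had both 8-week samples under the floor. Among the lower ones, Eif2s3y and a probe set of Eif2b5 had both 16-week samples under it. For these the filter fixed the direction. The tested members were split in direction, with 47 lower and 41 higher at 16 weeks and a median log2 difference of -0.08 (0.37 with the arrays aligned on the hybridisation controls, where the median of all probe sets was 0.54). Of the 41, 10 had both 8-week samples under the floor, and of the 47, 2 had both 16-week samples under it. Over all tested probe sets 43.7% were lower and the median was 0.09.

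Direction followed brightness, among the members as on the array as a whole. Of the 17 member probe sets with a mean intensity of 400 or more (geometric mean over the 4 arrays), 16 were lower at 16 weeks and 14 had groups that did not overlap, with a median log2 difference of -0.43. Among all 252 tested probe sets of that brightness 80.2% were lower, 62.3% lower without overlap, and the median was -0.39. Between 100 and 400 the members had 11 of 15 lower and a median of -0.30, against 60.6% and -0.12 for all probe sets. Between 25 and 100 they had 16 of 28 lower and a median of -0.13, against 42.8% and 0.10. Below 25 only 4 of 28 members were lower and the median was 0.43, against 34.7% and 0.20 for all. In that dimmest class 10 members had passed the filter through the 16-week samples alone, both 8-week samples lying under the floor, so their direction was fixed by the filter. Of its 4 lower members, 2 (Eif2s3y and a probe set of Eif2b5) had passed through the 8-week samples alone. The shift of the brightest members depends on how arrays are put on 1 scale. Their median was -0.089, with 12 of 17 lower, after quantile normalization. It was 0.10, with 5 of 17 lower, with the arrays aligned on the hybridisation controls. The median of all bright probe sets was -0.025 and 0.14 on these scales, with 53.2% and 29.4% of them lower. On the hybridisation controls only Eif3m, Rpl7a, Rplp0, Rps7 and the brightest probe set of Rps28 stayed below 0 among the bright members. Without 16-week sample 2, the array with the lowest member sum, the median of the bright members was -0.29 and that of all bright probe sets -0.24.

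**Figure D1:**
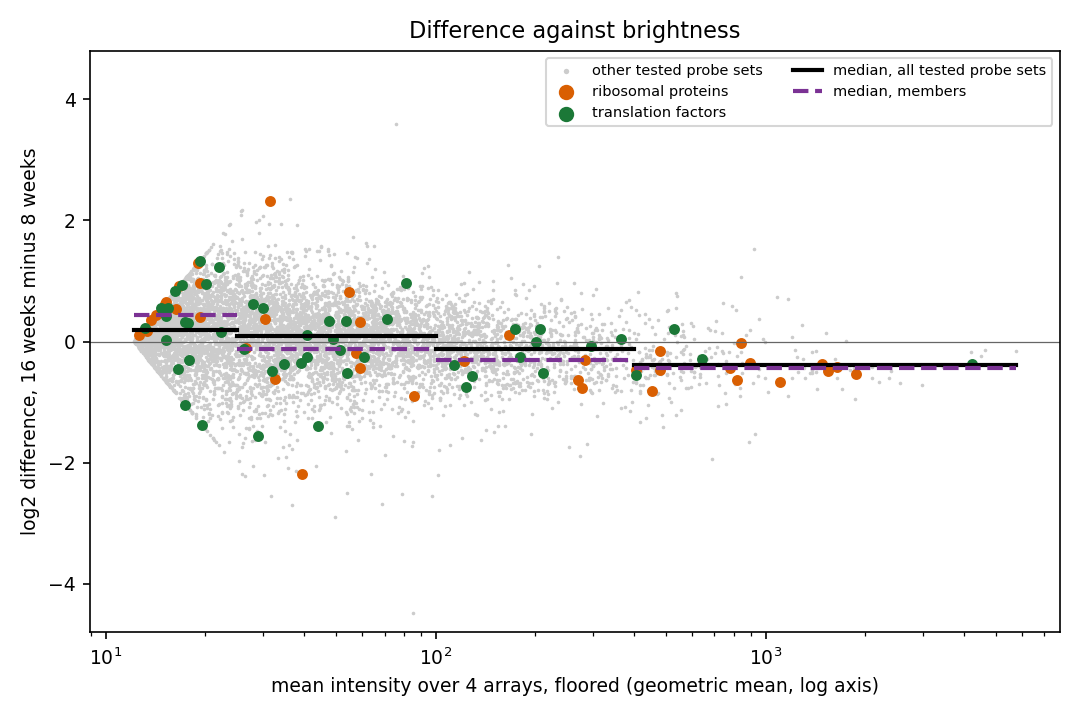
Log2 difference, 16 weeks minus 8 weeks, of each tested probe set against its mean intensity over the 4 arrays (log axis), with ribosomal proteins and translation factors coloured and solid and dashed bars at the medians of all tested probe sets and of the members in 4 ranges of brightness. Both sets of medians run downwards with brightness, from 0.20 and 0.43 below 25 to -0.39 and -0.43 at 400 and over.

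Proteins of the large subunit had 22 probe sets for 17 genes, of which 17 were tested; 8 were lower and 9 higher, with a median of 0.11 (0.36 on the hybridisation controls). It turned to -0.17 on a common median, -0.15 with only the brightest probe set of each gene, -0.043 without 16-week sample 1 and -0.0057 without 16-week sample 2. Among the higher ones, Rpl35a and a probe set each of Rpl38 and Rpl7 had both 8-week samples under the floor, so the filter fixed their direction. The bright large subunit probe sets lay lower at 16 weeks. Rpl7a, on the outer surface of the large subunit, read 891 and 864 in the 16-week samples, against 1357 and 1416 in the 8-week samples. This was a log2 difference of -0.66 ± 0.23 (limma's moderated SE, n = 2 per group) or 1.58-fold lower. Every ± here is such an SE, drawn towards a value common to all tested probe sets, and not the spread of the replicates alone. Both 16-week values lay well below both 8-week values, and replicates differed little. Rplp0, the scaffold of the stalk that recruits elongation factors, read 770.1 and 559 in the 16-week samples, against 1094 and 957 in the 8-week samples (-0.64 ± 0.28). Its groups did not overlap, although the 16-week samples differed from each other by more than the 8-week samples. Rpl10a, in the stalk beside the tRNA exit site, read 216 and 219.8 in the 16-week samples, against 349 and 326 in the 8-week samples (-0.63 ± 0.23). Its second, dimmer probe set gave 66.7 and 59.4 in 16-week against 116 and 119.7 in 8-week samples (-0.91 ± 0.24). Both Rpl10a probe sets were thus lower in both 16-week samples. Rpl19, which forms a bridge between the subunits, read 1676 and 1009 in the 16-week samples, against 1923 and 1734 in the 8-week samples (-0.49 ± 0.33), with 16-week sample 1 only just below the lower 8-week sample. Rpl8, near the peptidyl transferase centre, read 377 and 314 in 16-week against 470.5 and 478 in 8-week samples (-0.47 ± 0.24). The groups of Rpl6 overlapped at 502 and 411 in 16-week against 533 and 476 in 8-week samples (-0.15 ± 0.25).

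Several dim large subunit probe sets lay the other way. Rpl35a, named for a human gene mutated in Diamond-Blackfan anaemia, read 33.8 and 26.2 in the 16-week samples, against 5.8 and 11.2 in the 8-week samples. Both 8-week values were under the floor, so the probe set was at least 2.45-fold higher at 16 weeks (1.29 ± 0.26, limma adjusted p = 0.301). Rpl41, the smallest ribosomal protein, read 25.3 and 28.7 in the 16-week samples, against 13.9 and 13.8 in the 8-week samples (0.96 ± 0.24), on a probe set shared within a gene family. Rpl22, which is dispensable for most translation but needed for T cell development in mice, read 78.6 and 67.7 in the 16-week samples, against 29.8 and 56.8 in the 8-week samples (0.83 ± 0.38), and its groups lay apart although 8-week sample 1 was far below sample 2. The second probe set of Rpl22 lay below the floor on all arrays, and Rpl38, Rpl39 and Rpl7l1 stayed at or under 31.4.

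Small subunit proteins had 27 probe sets for 18 genes, of which 22 were tested. Of these 15 were lower and 7 higher at 16 weeks, with a median of -0.33 (-0.06 after quantile normalization, -0.55 on a common median, 0.20 on the hybridisation controls). Among the higher ones, Rps14, Rps20 and a probe set of Rps28 had both 8-week samples under the floor, so the filter fixed their direction. Rps7, which lies on the solvent side of the small subunit and binds MDM2 when free, read 378 and 308 in the 16-week samples, against 672 and 541 in the 8-week samples, a difference of -0.82 ± 0.27 or 1.77-fold lower. This was the largest gap among the bright members, with both 16-week samples below both 8-week samples. Rps10, near the messenger RNA entry, read 261 and 174 in the 16-week samples, against 442 and 298 in the 8-week samples (-0.77 ± 0.34). Samples of 1 group differed by almost as much as the groups there. Rps28, at the messenger RNA exit, read 1784 and 1367 in the 16-week samples, against 2339 and 2186 in the 8-week samples (-0.53 ± 0.26). A second bright probe set gave 874 and 716 in 16-week against 1049 and 974 in 8-week samples (-0.35 ± 0.25). Neither Rps28 probe set overlapped between the groups.

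The other bright small subunit proteins ran the same way with smaller gaps. Rps4x, the X-linked copy of a core protein, read 1409 and 1441 in the 16-week samples, against 1836 and 1991 in the 8-week samples (-0.42 ± 0.23). Rps18, which contacts the large subunit at the head of the small one, read 1493 and 1148 in 16-week against 1873 and 1516 in 8-week samples (-0.36 ± 0.28). Rps3a1, near the messenger RNA exit, gave 741 and 609 in 16-week against 962 and 851 in 8-week samples (-0.43 ± 0.25). These 3 did not overlap between the groups. Rpsa, also known as the laminin receptor, read 454 and 363 in 16-week against 475 and 666 in 8-week samples (-0.47 ± 0.29), the groups lying just apart. Rps3, a protein of the messenger RNA entry that also takes part in DNA repair, read 909 and 763 in the 16-week samples, against 1055 and 686 in the 8-week samples (-0.03 ± 0.31), so its groups overlapped. Rps19, whose human gene is the one most often mutated in Diamond-Blackfan anaemia, read 221 and 296 in 16-week against 299.7 and 329.6 in 8-week samples (-0.30 ± 0.27) and lay just apart. The zinc-binding protein Rps27 was slightly higher, at 178 and 168 in 16-week against 155 and 167 in 8-week samples (0.10 ± 0.23). So was Rps29, also zinc-binding, at 70.1 and 62.1 in 16-week against 49.5 and 56.8 in 8-week samples (0.32 ± 0.24). Rps14, which lies beside the platform of the subunit, read 21.8 and 24.2 in the 16-week samples, against 6.1 and 5.2 in the 8-week samples. It was at least 1.89-fold higher, with both 8-week values under the floor. Of the other dim ones, Rps20 was likewise above the floor only at 16 weeks (15.8 and 15.2 in 16-week against 7 and 8.6 in 8-week samples). Rps13 ran lower at 31.2 and 22.1 in 16-week against 37.7 and 42.9 in 8-week samples (-0.61 ± 0.28).

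**Figure D2:**
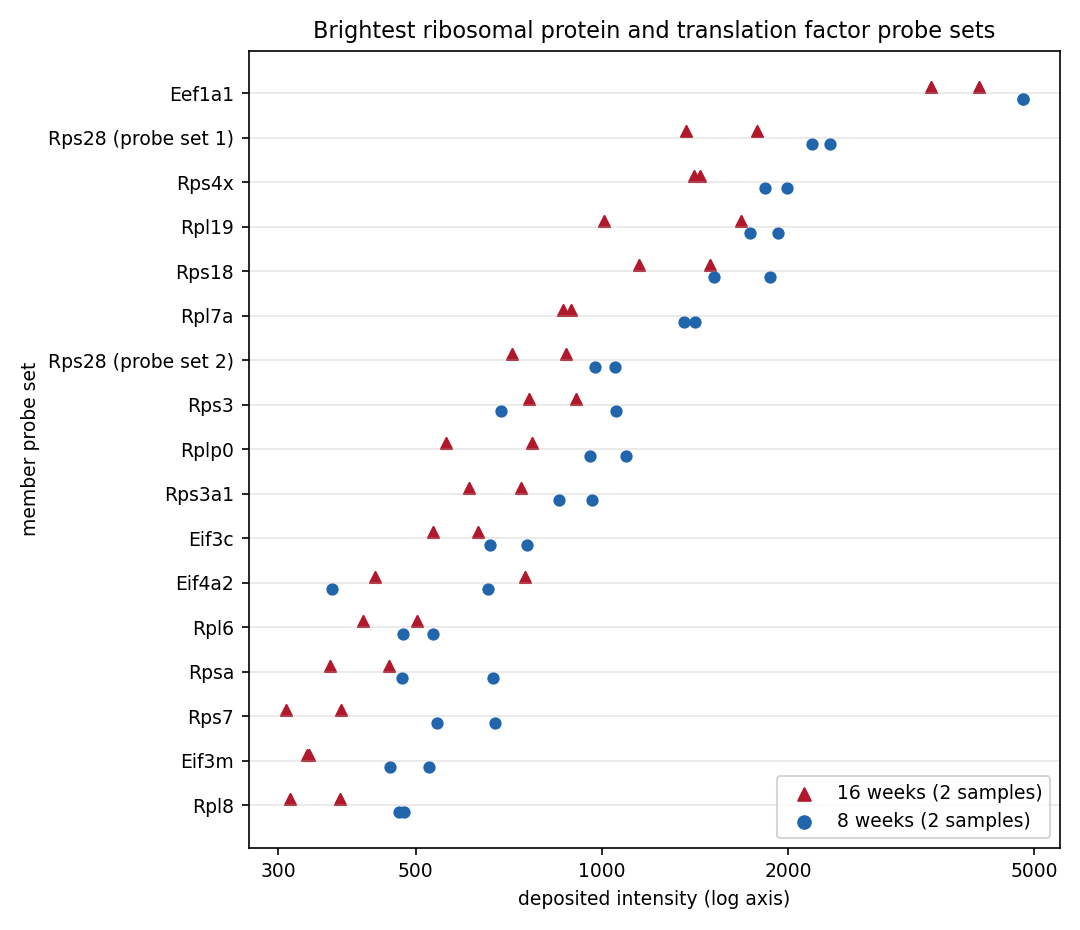
Deposited intensity (log axis) of the 17 member probe sets with a mean of 400 or more, with the 2 samples at 16 weeks as triangles above the 2 samples at 8 weeks as circles. In 14 of the 17 both triangles lie left of both circles; Eif4a2, Rps3 and Rpl6 overlap.

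Several of the widest differences were at paralogous or shared probe sets. A total of 9 tested members (10.2%) had an absolute log2 difference of 1 or more with groups that did not overlap, 5 lower and 4 higher, where 6.98% of all tested probe sets did. For 4 of them (Eif2s3y, Eif4e, Rpl35a and a probe set of Eif2b5) both samples of 1 group were under the floor. The filter thus fixed their direction and kept their groups apart. Of the 9, 5 carry a mark of shared, grouped or reduced design in their identifiers, as do 20 of the 88 tested members. Over the array 6256 of the 7883 tested probe sets carry none. The mark means that the probes can match several transcripts or that fewer probes met the design rules. Rps4l, an autosomal relative of Rps4x, read 18.3 and 18.6 in the 16-week samples, against 90.1 and 78.2 in the 8-week samples on a shared probe set (-2.19 ± 0.24, limma adjusted p = 0.301), 4.55-fold lower. Its other probe set read 25.6 and 25.9 in 16-week against 27.5 and 27.7 in 8-week samples (-0.10 ± 0.23), a far smaller gap. Rps4x had the opposite picture, with 92.6 and 53.4 in the 16-week samples, against 14 and 14 in the 8-week samples on a reduced probe set (2.33 ± 0.34, limma adjusted p = 0.301), 5.02-fold higher. Its bright probe set was lower, and another gave 44.3 and 65 in 16-week against 53.5 and 70.6 in 8-week samples (-0.20 ± 0.31). The 2 genes are near-identical in places, so their signals cannot be assigned with certainty.

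Of the 15 member genes with over 1 tested probe set, 9 had probe sets of opposite sign. In 6 of them (Eif3e, Rpl19, Rpl7, Rps24, Rps28 and Rps4x) the brightest probe set was lower at 16 weeks and the dimmest higher, and in 3 (Eif4b, Eif4e2 and Eif4ebp2) it was the other way round. The dimmest probe sets of Eif3e, Rpl7 and Rps28 had both 8-week samples under the floor, so that they had to be higher, and their differences are bounds. Rpl19 gave -0.49 ± 0.33 on the bright probe set and 0.41 ± 0.23 on the dim one (22 and 22.5 in 16-week against 16.4 and 17.1 in 8-week samples). Rps28 was at least 1.54-fold higher on its dimmest probe set (17 and 20.6 in 16-week against 11.1 and 9.3 in 8-week samples). For Rpl7 the bright probe set read 133 and 89.2 in 16-week against 132 and 141 in 8-week samples (-0.32 ± 0.29). The dim one gave 17.9 and 20.6 in 16-week against 7.1 and 7.7 in 8-week samples, at least 1.58-fold higher. That bright probe set has the same source accession as a Rps24 probe set, so the annotation gives 1 transcript record to both genes and the naming of either is uncertain. For Rps24 that record's probe set gave 52.7 and 48.7 in 16-week against 74 and 62.9 in 8-week samples (-0.43 ± 0.24). A separate one gave 33.3 and 36.1 in 16-week against 20.1 and 35.3 in 8-week samples (0.38 ± 0.34).

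**Figure D3:**
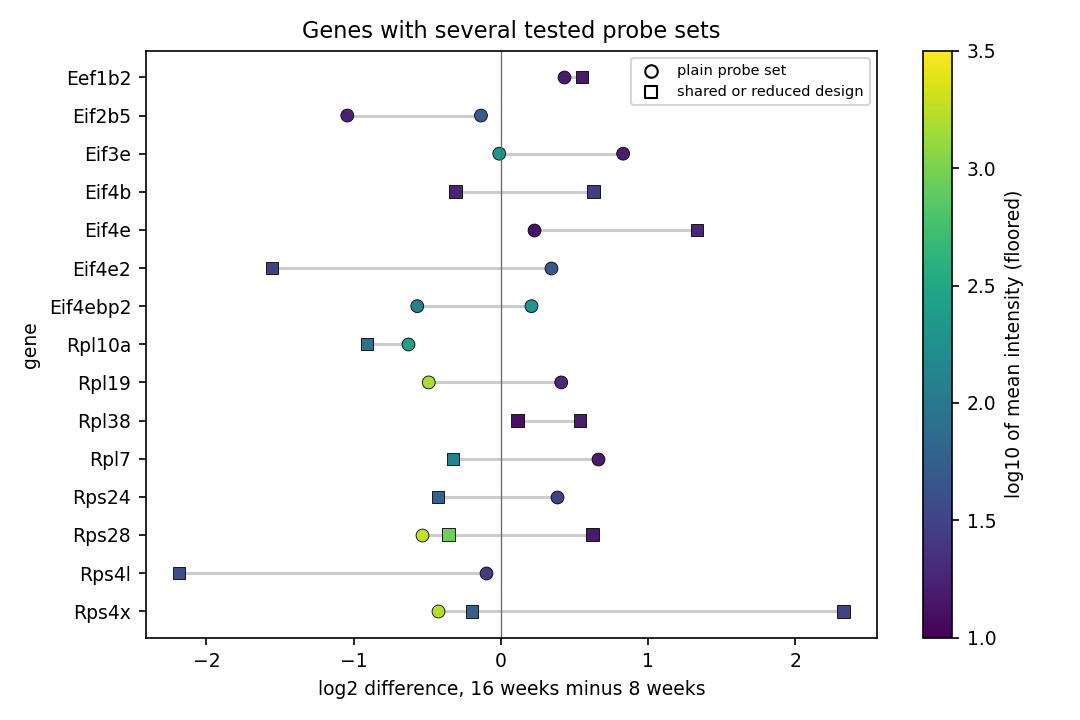
Log2 difference, 16 weeks minus 8 weeks, of each tested probe set of the 15 genes with several, coloured by mean intensity, with squares for shared or reduced designs. Lines that cross 0 mark the 9 genes whose probe sets disagree in sign; Rps4x spans from -0.42 to 2.33.

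Factors that carry the initiator tRNA and choose the start codon had 16 probe sets for 11 genes. Of the 10 tested, 7 were lower and 3 higher at 16 weeks, with a median of -0.41 (-0.63 on a common median, 0.07 on the hybridisation controls). All 7 were lower without overlap, where 20.6% of all tested probe sets were. They include Eif2s3y, whose direction and lack of overlap the filter fixed. Eif2s3x, the X-linked gene of the γ subunit of eIF2, which binds GTP and the initiator tRNA, read 28.6 and 26 in the 16-week samples, against 66.4 and 76.6 in the 8-week samples. The 16-week samples lay far below both 8-week samples, a difference of -1.39 ± 0.24 or 2.62-fold lower (limma adjusted p = 0.301). The probe set of its Y-linked homologue Eif2s3y, of a design shared within a gene family, read 4.4 and 5.1 in the 16-week samples, against 32.3 and 31 in the 8-week samples. Both 16-week values were under the floor, so it was at least 2.60-fold lower (-1.38 ± 0.23, limma adjusted p = 0.301). The labels used here do not give the sex of the animals. Xist, the RNA of the inactive X chromosome, gave 12.3 and 24.2 in the 16-week samples, against 1.8 and 1.9 in the 8-week samples. Both 8-week values were under the floor, so the filter fixed its direction (0.51 ± 0.38). The Y-linked genes Kdm5d, Uty and Uba1y lay under the floor on all arrays, between 1.1 and 11.9. Uty read 11.9 and 5.5 in 16-week against 1.1 and 1.7 in 8-week samples. The X-linked Ddx3x gave -0.39 ± 0.36, 0.70 ± 0.32 and 0.02 ± 0.32 on its probe sets. The part of sex in the Eif2s3x and Eif2s3y values was not tested.

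Other start codon factors were nearer to 0 or dim. Eif1b, a relative of the scanning factor eIF1, read 113 and 81.3 in the 16-week samples, against 177 and 144 in the 8-week samples (-0.74 ± 0.29, 1.67-fold lower), its groups lying apart. Eif1ax, which with eIF1 keeps the scanning ribosome open, read 50.3 and 40.2 in 16-week against 54.4 and 76.9 in 8-week samples (-0.52 ± 0.30). Eif5, which triggers GTP hydrolysis on eIF2, and Eif5b, which joins the subunits, gave -0.36 ± 0.26 and -0.25 ± 0.24. Eif5a, which carries the hypusine residue, read 13.9 and 14.3 in 16-week against 15.4 and 24.4 in 8-week samples (-0.46 ± 0.31). Eif2a, an alternative initiator tRNA factor distinct from the eIF2 subunits, ran the other way at 32.3 and 35.3 in the 16-week samples, against 11.6 and 17.1 in the 8-week samples (1.23 ± 0.28, limma adjusted p = 0.309), with 8-week sample 1 under the floor. The eIF2 β subunit gene Eif2s2 varied more within the groups than between them, at 8.6 and 19.4 in 16-week against 18.6 and 1.8 in 8-week samples (0.03 ± 0.37). The groups of Eif2d, a relative of recycling factors, overlapped too (0.33 ± 0.34).

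The exchange factor eIF2B, which reloads eIF2 with GTP, and the kinases that block it by phosphorylating eIF2 mostly showed small differences. The regulatory subunit Eif2b2 gave 46.9 and 52.5 in 16-week against 41.5 and 56.3 in 8-week samples (0.04 ± 0.27), with overlap. Eif2b4, another regulatory subunit, gave 93.8 and 69.9 in 16-week against 58.1 and 67.8 in 8-week samples (0.37 ± 0.27), the groups lying just apart. Eif2b5, the catalytic subunit, read 46.3 and 52 in the 16-week samples, against 44.2 and 65.7 in the 8-week samples on its bright probe set (-0.14 ± 0.30), with overlapping groups. Its dim probe set read 9.7 and 10.3 in 16-week against 24.2 and 25.9 in 8-week samples and was at least 2.06-fold lower (-1.04 ± 0.23, limma adjusted p = 0.309), both 16-week values being under the floor. All 3 tested kinases lay higher in the later samples, at a median of 0.30 (0.07 after quantile normalization, where Eif2ak1 turned to -0.035, and 0.81 on the hybridisation controls). It lay between 0.13 and 0.49 with a sample left out, lowest without 8-week sample 1 and highest without 16-week sample 2. The amino acid sensor Eif2ak4 (GCN2) read 36.2 and 36.5 in 16-week against 18.6 and 33.2 in 8-week samples (0.55 ± 0.35). The double-stranded RNA sensor Eif2ak2 (PKR) gave 22.4 and 17.2 in 16-week against 14.8 and 17.2 in 8-week samples (0.30 ± 0.27). The haem sensor Eif2ak1 gave 23.9 and 23.4 in 16-week against 18.9 and 23.7 in 8-week samples (0.16 ± 0.25). Only the groups of Eif2ak4 lay apart, and its 8-week samples differed more from each other than sample 2 did from the 16-week values. The ER stress kinase Eif2ak3 (PERK) lay under the floor on all arrays.

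Subunits of eIF3, the scaffold on which the initiation complex assembles, were evenly split, with 6 of 11 tested probe sets lower and a median of -0.01 (0.13 after quantile normalization, -0.23 on a common median, 0.52 on the hybridisation controls). Leaving out 16-week sample 2 gave 0.080, and leaving out 8-week sample 2 gave 0.13. Eif3m read 336 and 334 in the 16-week samples, against 455 and 525 in the 8-week samples (-0.54 ± 0.24), the groups lying apart with close replicates at 16 weeks. Eif3d, which can itself bind the cap of some messenger RNAs, read 201 and 155 in 16-week against 306 and 207 in 8-week samples (-0.51 ± 0.31). The core subunit Eif3c gave 629.9 and 533 in 16-week against 660.3 and 756 in 8-week samples (-0.29 ± 0.25). Eif3e read 201 and 201 in 16-week against 184 and 224 in 8-week samples on its bright probe set (-0.01 ± 0.25). A dim one gave 25.5 and 18.3 in 16-week against 6.4 and 9.9 in 8-week samples, at least 1.78-fold higher. Both 8-week values were under the floor, so the filter fixed its direction. Eif3j1, a loosely bound subunit, read 25.9 and 30.4 in the 16-week samples, against 12.9 and 16.3 in the 8-week samples (0.95 ± 0.26, 1.94-fold higher). The other subunits tested, Eif3a, Eif3b, Eif3f, Eif3k and Eif3l, gave differences between -0.25 and 0.34.

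Cap-binding and helicase factors also held both directions, with 4 of 10 tested probe sets lower and a median of 0.22 (0.058 on a common median, 0.61 on the hybridisation controls). It was -0.067 without 16-week sample 1, 0.0029 without 8-week sample 1 and 0.36 without 16-week sample 2. Eif4e, the cap-binding protein, read 32.2 and 29 in the 16-week samples, against 6.5 and 8.9 in the 8-week samples on a reduced probe set, at least 2.52-fold higher (1.33 ± 0.23, limma adjusted p = 0.301). Its other probe set lay close to the floor, at 13.6 and 14.8 in 16-week against 5.4 and 9.5 in 8-week samples (0.22 ± 0.23). Both 8-week samples were under the floor on both probe sets. The filter thus fixed the direction of both, and they count among the higher probe sets of this class. Eif4e2, a cap-binding homologue that represses translation, gave 0.34 ± 0.27 on its brighter probe set (61.5 and 46.2 in 16-week against 39.9 and 44.3 in 8-week samples). Its second probe set, shared within a gene family, read 18.8 and 15.2 in the 16-week samples, against 49.7 and 49.6 in the 8-week samples (-1.55 ± 0.25, limma adjusted p = 0.301), 2.94-fold lower, so the direction for Eif4e2 is not settled. The RNA helicases overlapped between the groups: Eif4a2 read 751 and 429 in 16-week against 366 and 655 in 8-week samples (0.21 ± 0.43). For Eif4a1 the values were 124 and 80.2 in 16-week against 147 and 114 in 8-week samples (-0.38 ± 0.32). Eif4b, which stimulates the helicase, also overlapped, with 51.7 and 23.4 in 16-week against 16.8 and 30.2 in 8-week samples on the brighter probe set (0.63 ± 0.50). The dimmer one gave 20.4 and 12.6 in 16-week against 18.2 and 21.7 in 8-week samples (-0.31 ± 0.33). Eif4g2, which supports cap-independent initiation, was dim at 20.3 and 17.3 in 16-week against 3.9 and 13.4 in 8-week samples (0.55 ± 0.24). Eif4g3, a scaffold homologue, read 40.3 and 34.8 in 16-week against 41.4 and 47.9 in 8-week samples (-0.25 ± 0.25).

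Among the inhibitors, Eif4ebp1, the binding protein that masks eIF4E until mTOR phosphorylates it, read 20.8 and 26.9 in the 16-week samples, against 5.8 and 12.5 in the 8-week samples (0.94 ± 0.26, limma adjusted p = 0.320). The groups lay apart, with 8-week sample 1 under the floor. Eif4ebp2, its homologue, was split, with 252 and 198 in 16-week against 157 and 238 in 8-week samples on 1 probe set (0.21 ± 0.32). Another gave 113 and 99.5 in 16-week against 128 and 194 in 8-week samples (-0.57 ± 0.30). Eif6, which keeps free large subunits from joining, read 30.6 and 23.7 in the 16-week samples, against 31.2 and 45.4 in the 8-week samples (-0.48 ± 0.31), with the lowest 8-week value only just above the highest 16-week value.

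Of the elongation factors, Eef1a1, which delivers aminoacyl-tRNA and had the highest intensity of all members, read 4077 and 3409.8 in the 16-week samples, against 4790.5 and 4793 in the 8-week samples (-0.36 ± 0.24, 1.28-fold lower). The groups did not overlap and the 8-week samples were nearly equal. Its tissue-restricted paralogue Eef1a2, normally expressed in neurons and muscle and raised in some carcinomas, lay the other way at 123 and 105 in the 16-week samples, against 52.1 and 65.2 in the 8-week samples (0.96 ± 0.26, 1.95-fold higher, limma adjusted p = 0.320). Both 16-week samples lay above both 8-week samples, and the intensities of the paralogues say nothing of their relative levels, since mouse probes can bind Mastomys sequence unequally. Eef2, the translocase, did not differ beyond its spread, at 444 and 306 in the 16-week samples, against 347 and 374 in the 8-week samples (0.03 ± 0.29). The exchange subunits were dim. Eef1d gave 26.7 and 34.7 in 16-week against 45.1 and 34.4 in 8-week samples (-0.37 ± 0.29). Eef1b2 gave 25.6 and 6.6 in 16-week against 14.1 and 2.9 in 8-week samples (0.43 ± 0.41), with overlap. Its other probe set gave 18.5 and 17.1 in 16-week against 10.3 and 9.7 in 8-week samples, at least 1.46-fold higher with both 8-week values under the floor. The methyltransferase Eef1akmt1 gave -0.12 ± 0.23, and Eef2k, the kinase that inactivates Eef2, lay under the floor throughout.

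**Figure D4:**
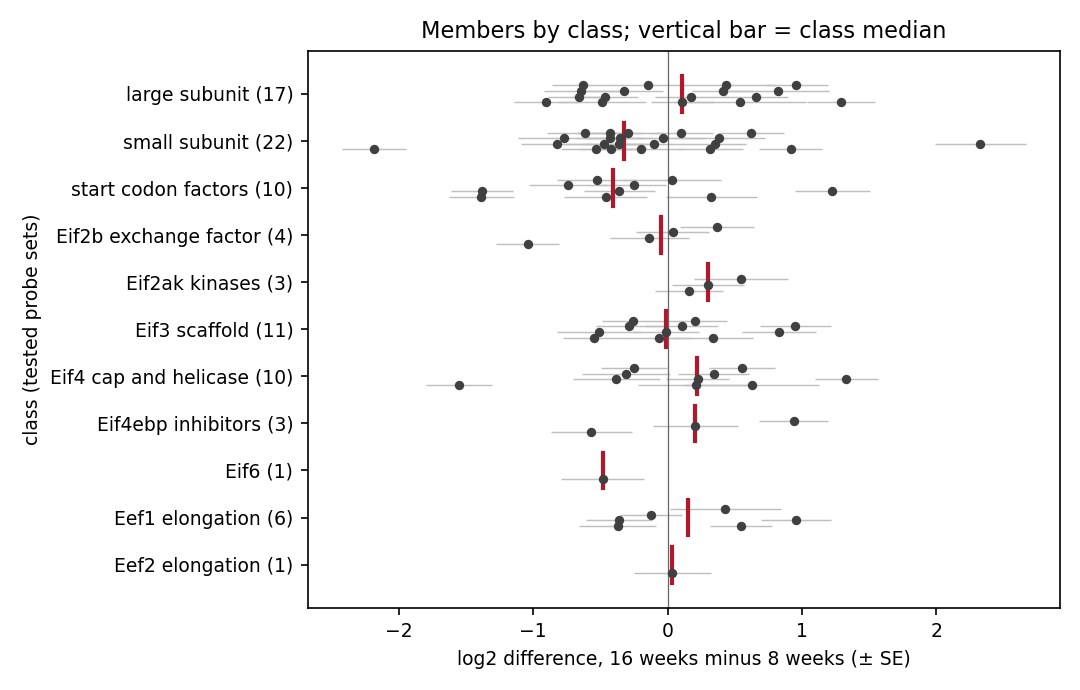
Log2 difference, 16 weeks minus 8 weeks, of each tested member probe set with limma's moderated SE, by class. A vertical bar lies at the class median, and the number tested is beside the class name. Class medians run from -0.48 (Eif6, a single probe set) and -0.41 (start codon factors) to 0.30 (Eif2ak kinases). On the hybridisation controls the medians of Eif6 and of the start codon factors lay above 0 (0.045 and 0.07). In every class with over 4 probe sets points lie on both sides of 0.

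Another 27 member probe sets, 10 of ribosomal proteins and 17 of translation factors, did not reach the filter, the highest single value among them being 26.4. They left 13 genes without a measurement: Eef1g, Eef2k, Eif1a, Eif2ak3, Eif2b1, Eif4enif1, Eif4h, Rpl13a, Rpl32, Rpl37a, Rpl39l, Rps15 and Rps27l. A dim signal does not show a low transcript level here, since mouse probes were hybridised with RNA of another genus. Rps6, Rpl3 and Eif2s1 were not among the members by the rule.

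Related genes of protein synthesis gave no call either, with 0 of their probe sets past the adjusted threshold in limma. Over all tested probe sets 43.7% were lower, and 14% had an unadjusted p under 0.05 (5.87% lower, 8.08% higher). Mitochondrial ribosomal proteins, a separate machinery for mitochondrial transcripts, had 35 of 52 tested probe sets (67.3%) lower at 16 weeks and a median of -0.13. At that p there were 6 lower and 4 higher, 19.2% of the list. Mrpl45 read 16.1 and 18.2 in 16-week against 49.2 and 58.7 in 8-week samples (-1.65 ± 0.25) and a probe set of Mrpl18 92.1 and 82 in 16-week against 225 and 178 in 8-week samples (-1.20 ± 0.26), while another of Mrpl18 overlapped (-0.15 ± 0.24). A probe set of Mrpl15 lay in the other direction, at 32.1 and 29.4 in 16-week against 14.5 and 13.7 in 8-week samples (1.12 ± 0.23), but its brighter one overlapped with the opposite sign (-0.27 ± 0.45). Ribosome biogenesis genes had 14 of 30 lower and a median of 0.02. Sbds, which releases Eif6 from new large subunits, had the smallest p there at 26.7 and 30.7 in the 16-week samples, against 97.5 and 103 in the 8-week samples (-1.80 ± 0.24). The small nucleolar protein Gar1 gave 0.54 ± 0.24 and 0.56 ± 0.32 on its probe sets. The assembly factor Bop1 gave 69.7 and 25.4 in 16-week against 16.2 and 21.7 in 8-week samples (1.17 ± 0.53). Aminoacyl-tRNA synthetases had 11 of 20 lower and a median of -0.04. The lysine enzyme Kars gave 40.5 and 38.2 in 16-week against 9.4 and 19.3 in 8-week samples (1.36 ± 0.31). The histidine enzyme Hars gave 6.3 and 5.3 in 16-week against 25.2 and 21.3 in 8-week samples, a difference of -0.93 or lower, with both 16-week values under the floor.

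The termination and poly(A)-binding list had 8 of 13 lower and a median of -0.24. The release factor Gspt1 read 152 and 139.9 in 16-week against 238 and 311 in 8-week samples (-0.90 ± 0.26). The 5 tested probe sets of its partner Etf1 spread from -0.46 to 0.64, 3 of them lower. Among S6 kinases and the mTOR pathway 7 of 13 were lower, with a median of -0.26. Mtor, the kinase that couples nutrients to translation, had probe sets of opposite sign. The dim one gave 12.5 and 7.9 in 16-week against 31.1 and 19.9 in 8-week samples (-1.01 ± 0.31). The brighter one gave 92.5 and 88.6 in 16-week against 66.8 and 86.6 in 8-week samples (0.25 ± 0.26), its groups lying apart. Its partner Mlst8 gave 90.3 and 106 in 16-week against 60.8 and 65.4 in 8-week samples (0.63 ± 0.24). Mknk2, a kinase of eIF4E, gave -0.62 ± 0.23 and 0.53 ± 0.33 on different probe sets. Other ribosome-linked proteins had 3 of 5 lower and a median of -0.25. Tpt1, an abundant growth-linked protein, gave 3236 and 2729 in 16-week against 4025 and 3964 in 8-week samples (-0.43 ± 0.24). The nascent chain factor Naca gave 33.5 and 36.2 in 16-week against 44.3 and 51.8 in 8-week samples (-0.46 ± 0.24). Mitochondrial translation factors had 3 of 5 lower and a median of -0.42, with the elongation factor Tufm at 0.57 ± 0.33 and -0.42 ± 0.27 on 2 probe sets.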

How the data were processed

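Total RNA of 4 gastric mucosa samples was hybridised to mouse U74 arrays of Affymetrix, per the labels. The authors' deposited intensity of each probe set is linear; its computation and scaling are not given in the sources used here. Gene names came from the platform annotation of mouse genes: of 12422 probe sets other than controls 10833 had 1 symbol, 396 several and 1193 none here. No genome was used.

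The deposited scale was kept. Values under a floor of 12.15 (the 40th percentile of an array, as the median of the 4 arrays) were set to it, and log2 was taken. Probe sets above it on at least 2 of 4 arrays (7883) were tested, 16 against 8 weeks, 2-sided, with limma 3.58.1 in R 4.3.3 (lmFit, then eBayes), with Benjamini-Hochberg adjustment over all of them and a threshold of 0.05. A fold is a lower bound (at least) where neither sample of 1 group reached the floor. An exact 2-sided permutation test of 2 against 2 samples cannot go below 0.333. The labels do not say whether samples are separate animals; p-values thus reflect the spread between these samples alone, which may be technical. The number of arrays limits the precision. On data simulated for this comparison with 7776 probe sets, limma called 0% of 2-fold, 36% of 4-fold, 70% of 8-fold and 84% of 16-fold changes, with 5 false calls. The simulated errors were independent, with variances from limma's fitted prior, and 49 or 50 probe sets were changed at each fold. No shift linked to array or brightness was simulated, so these rates need not hold for the real arrays.

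Genes were named by class (up to 4 with the smallest p), by size (absolute log2 difference of 1 or more without overlap), from a fixed set, and up to 3 per related list; other members are described as well to account for all. The members, lists and rules were chosen with earlier results of these data known. The brightness ranges and the genes Xist, Kdm5d, Uty, Uba1y and Ddx3x were chosen after their values were seen. Sequences were not used here.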

Additional observations from a re-analysis of the deposited data

How the results depend on the processing

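With each alternative tried, limma called 0 members past the adjusted threshold, with 14 to 32 at an unadjusted p under 0.05. Over all probe sets it called 0, but 22 without the filter on dim probe sets. The replicate numbers shared by the groups have no stated meaning, and the sample 1 minus sample 2 differences of the groups correlated at -0.0504, so they were not taken as pairs; with a replicate block 0 members passed and their median stayed at -0.08. The members' median was -0.32 on a common median and 0.37 with the arrays aligned on the hybridisation controls, where 17 of 86 were lower and the median of all probe sets was 0.54; with a sample left out it lay between -0.16 and -0.04 and the number lower between 45 and 53. The median of the bright members, an alternative set added after seeing the data, was -0.089 after quantile normalization, -0.65 on a common median and 0.10, with 5 lower, on the hybridisation controls, and lay between -0.55 and -0.29 with a sample left out. Of all bright probe sets 29.4% were lower on the hybridisation controls. The 9 members with the widest differences kept their sign wherever they were tested, but for 4 of them (Eif2s3y, Eif4e, Rpl35a and a probe set of Eif2b5) the floor fixed it. On the hybridisation controls 31 of 85 members changed sign, 11 of the 17 bright ones among them, including Rpl19, Rpl8, Rpl6, Rps18, Rps3, Rps3a1 and the second Rps28 probe set. Of 43 named probe sets 15 changed sign in at least 1 alternative. Signs turned with the arrays aligned on the hybridisation controls for Eef1a1 0.17, Eef1d 0.16, Eif2b5 0.39, Eif3c 0.24, Eif3d 0.018, Eif4a1 0.15, Eif6 0.045, Rps4x 0.10, Rpsa 0.056, on a common median for Eef2 -0.19, Eif2ak1 -0.060, Eif2b2 -0.18, Eif4a2 -0.0067, Eif4ebp2 -0.013, and after quantile normalization for Eif2ak1 -0.035, Eif2b2 -0.033. With a sample left out, values crossed 0 for Eef1b2 (-0.11 to 0.97), Eef2 (-0.23 to 0.30), Eif2ak1 (-0.0031 to 0.32), Eif2b2 (-0.18 to 0.26), Eif2b5 (-0.42 to 0.15), Eif4a2 (-0.21 to 0.63), Eif4ebp2 (-0.094 to 0.51). Dim probe sets are limited by the floor, and the cause of these dependences was not tested.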

Other observations

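A further 40 probe sets carry several symbols that include a ribosomal protein or translation factor together with pseudogenes or relatives, and so were not members. Of the 37 that were tested 26 (70.3%) were lower at 16 weeks, where 43.7% of all tested probe sets were, with a median log2 difference of -0.28 and 0 past limma's adjusted threshold (4, or 10.8%, at an unadjusted p under 0.05, where 14% of all did). The 19 with a mean intensity of 400 or more had 17 lower and a median of -0.37, beside -0.43 for the bright members and -0.39 for all bright probe sets. Of 8 between 100 and 400, 6 were lower (median -0.17), and of 10 dimmer ones 3 were lower.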
